A study of Mus musculus with 5 samples.

Results

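The 10 genes followed here, H19, Igf2, Dlk1, Meg3, Peg3, Peg10, Mest, Plagl1, Grb10 and Cdkn1c, are imprinted growth genes, chosen by symbol from the 17923 genes listed in at least 1 of 5 RNA-Seq libraries. Their RNA was scarce in the BVE-Ctnnb1wt libraries, where the 10 genes together summed to an FPKM of 2.74 and 3.50. They summed to 46.5, 51.4 and 65.8 in the BVE-Ctnnb1null libraries, and a different gene led in each: Dlk1 in the first, Peg3 in the second and Grb10 in the third. FPKM counts sequenced fragments after scaling to transcript length and library total. With edgeR's quasi-likelihood test 0 of the 8 genes that passed its filter had an adjusted p under 0.05. DESeq2 gave an adjusted p for 6 of the 10 genes. It called Igf2, Dlk1, Mest, Plagl1 and Cdkn1c higher in the null libraries, against 8.46% of all genes with an adjusted p. All of these but Mest had almost no wt counts and could hardly be called lower, so this comparison carries no weight as support.

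The cells were lines grown from mouse thyroid tumors that carry BrafV600E, the activated form of the kinase Braf, with Ctnnb1, the gene of β-catenin, either intact (BVE-Ctnnb1wt) or deleted (BVE-Ctnnb1null). Every line shares the BrafV600E genotype, and the culture protocol gives TSH, thyroid-stimulating hormone, in the growth medium. Both wt libraries came from 1 line name, BVE, labelled P20, wt 1 without and wt 2 with TSH. Null 1 was labelled BVECTN_4, P8, without TSH. Null 2 was labelled BVECTN_4A, P11, and null 3 BVECTN_5, P7, with TSH not stated for either. The protocol instead counts about 25 passages for wt and 20 for null lines. The labels do not say whether BVECTN_4 and BVECTN_4A derive from the same tumor, nor whether a line is 1 clone, and the ages of the donor mice and the promoter behind the deletion are not given in the sample labels. Genotype, line and passage cannot be told apart here, nor can TSH be set apart from them, since its label is missing for null 2 and null 3. The p-values below therefore measure the spread between these libraries. Estimated read counts summed to 30432737 and 30713079 in wt 1 and wt 2, and to 29929677, 29360002 and 29415980 in null 1, null 2 and null 3.

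Imprinted genes are transcribed from the copy inherited from 1 parent, and the marks that set this lie in DNA methylation of control regions laid down in the germ line. Many of them act on fetal growth. Genes expressed from the father's copy, such as Igf2, Dlk1, Peg3, Peg10, Mest and Plagl1, tend to promote growth, while genes expressed from the mother's copy, such as H19, Meg3, Cdkn1c and, in most tissues, Grb10, tend to restrain it. Most are abundant in the fetus and placenta and are low in adult organs, and several are switched on again in tumors and in stem or progenitor cells. The deposited values sum both parental copies, so imprinting itself was not measured.

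Ctnnb1, the deleted gene, was checked first. Its FPKM was 59.29 in wt 1 and 73.75 in wt 2, against 124.58, 196.26 and 117.82 in null 1, null 2 and null 3 (log2 fold change 0.55, standard error 0.44, adjusted p = 0.517, edgeR with Benjamini-Hochberg adjustment). RNA of the gene was thus present in every library labelled null, and in FPKM each null library lay above both wt libraries. On counts scaled by edgeR (TMM-scaled CPM) the groups overlapped, with 251 and 356 in wt and 418, 572 and 344 in null. These levels do not decide whether the labels hold, and the deletion itself was not tested. Values per transcript do not show whether some exons are missing. Every direction between genotypes below compares the libraries labelled null with those labelled wt.

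The labelled cell type, thyroid epithelial cells, was checked against 13 follicular markers. Nkx2-1, a thyroid transcription factor, had an FPKM of 9.21 and 15.02 in wt and 9.26, 34.83 and 0.26 in null 1, null 2 and null 3. Pax8, another, had 0.40 and 0.17 in wt and 18.15, 12.78 and 2.56 in null. Several genes of hormone synthesis were near 0. Tg, the hormone precursor, reached 0.86, while Slc26a4, Duox2, Duoxa2 and Iyd stayed at or under 0.04. Slc5a5, the iodide transporter, had 1.03 and 0.36 in wt and 6.48, 0.05 and 0.14 in null. Epithelial RNA also differed among the null libraries. Epcam, an epithelial surface protein, had an FPKM of 5.04 and 4.61 in wt, 152.05 in null 1, 59.60 in null 3 and was listed at 0 in null 2, as was Cdh1. The 13 follicular markers summed to an FPKM of 15.3 and 20.6 in wt and 35.2, 68.5 and 4.86 in null. The 3 null libraries thus differed widely from each other before any imprinted gene was considered.

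**Figure D1:**
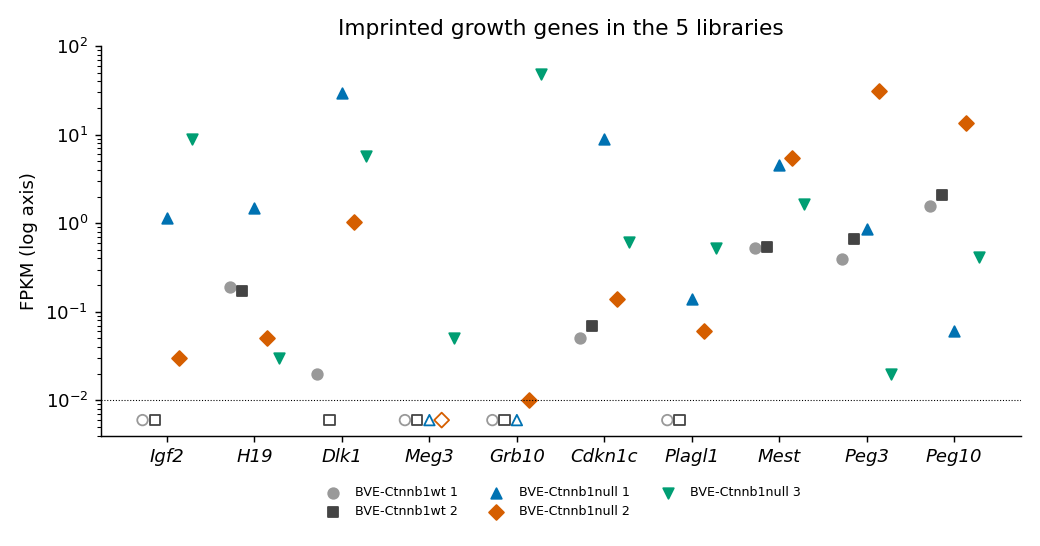
FPKM of the 10 imprinted growth genes (log axis) in each of the 5 libraries, 1 point per library. Open symbols under the dotted line at 0.01, the lowest FPKM listed, mark libraries in which the gene was not listed. The wt points of each gene lie close together, while the null points spread over up to several powers of 10, as for Grb10 with 0, 0.01 and 47.79.

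Igf2, a fetal growth factor that signals through the IGF1 and insulin receptors, was not listed in either wt library. It had 135 counts (FPKM 1.15) in null 1, 3 counts (0.03) in null 2 and 989 counts (8.96) in null 3. The null 3 value was thus the highest and null 2 was at the floor of 3 counts, the number a count of 0 still allows. Against that floor in each wt library, expression was at least 33.3-fold higher in null 1 and at least 221-fold higher in null 3. Bounds divide the observed null count by the floor. Fold bounds, ratios and their 95% intervals here use TMM-scaled counts and cover counting error only. The fitted log2 fold change, which depends on the prior count where wt is at 0, was 11.34 (standard error 3.51, adjusted p = 0.212 with edgeR), and DESeq2 gave an adjusted p of 0.0141.

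H19, the noncoding RNA made next to Igf2 from the other parental copy, followed a different order. Its FPKM was 0.19 and 0.17 in wt, 1.50 in null 1, 0.05 in null 2 and 0.03 in null 3, from 15, 14, 118, 4 and 2 counts. Null 1 was 6.04-fold above the pooled wt counts (95% interval 4.00 to 9.41), whereas null 3, the library with the most Igf2, was at 0.0930 of the wt level (0.0108 to 0.368). The groups overlapped, and the edgeR log2 fold change, 1.07 with a standard error of 1.77 and an adjusted p of 0.769, turned to -2.81 without null 1. Both genes were detected together at an FPKM of at least 1 in null 1.

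Dlk1, a membrane and secreted protein of the Notch ligand family that marks progenitor cells, had 2 and 0 counts in wt. It had 3843 counts (FPKM 29.23) in null 1, 131 counts (1.02) in null 2 and 743 counts (5.74) in null 3. Every null library lay above both wt libraries, and the lowest, null 2, still exceeded the pooled wt counts 88.0-fold (95% interval 23.9 to 735). The ratio was 2850 (789 to 23600) for null 1 and 501 (138 to 4140) for null 3, wide because wt rests on 2 counts. The log2 fold change came to 10.05 in edgeR, with a standard error of 2.20 and an adjusted p of 0.180, and the adjusted p of DESeq2 was 7.34e-07.

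Meg3, the noncoding RNA of the same domain made from the maternal copy, was not listed in 4 libraries and had 5 counts (FPKM 0.05) in null 3. The filter on low counts removed it from the edgeR fit, and without the filter its adjusted p was 0.595. Dlk1 RNA was therefore present in 3 null libraries with almost no Meg3 beside it. Rian, a further noncoding RNA of the domain, reached an FPKM of 0.31 in null 3, where Dio3, the thyroid hormone inactivating deiodinase at the far end of the domain, reached 1.07. Dio3 was not listed in any other library. Rtl1 and Mirg stayed at or under 0.02 and 0.13.

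Grb10, an adaptor that dampens insulin and IGF receptor signaling, was a gene of 1 library. It had 7138 counts (FPKM 47.79) in null 3, 2 counts (0.01) in null 2 and none in wt 1, wt 2 or null 1. Against the floor of 3 counts per wt library, null 3 was at least 1600-fold higher. The filter on low counts removed the gene because just 1 library carried it, so edgeR gave no value over all 5 libraries. Without the filter its adjusted p was 0.293, and DESeq2 returned no p. In null 3 it was the most abundant of the 10 genes, with 72.6% of their summed FPKM.

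In null 3, counts were assigned to both annotated Grb10 starts, in shares that are estimates of the counting program. Transcript NM_010345 received 5254.56 estimated counts, 72.3% of the gene's FPKM, and NM_001177629 received 1883.44, or 27.7%. The 250 bases before each start are shown because nearly all counts of the transcripts that begin there were assigned in null 3. They are RefSeq sequences of GRCm38.p6, read 5′ to 3′ on the minus strand of the gene, with every CG in capitals, since CG is the site of methylation.
Grb10 start of NM_010345, chr11:12037421-12037670: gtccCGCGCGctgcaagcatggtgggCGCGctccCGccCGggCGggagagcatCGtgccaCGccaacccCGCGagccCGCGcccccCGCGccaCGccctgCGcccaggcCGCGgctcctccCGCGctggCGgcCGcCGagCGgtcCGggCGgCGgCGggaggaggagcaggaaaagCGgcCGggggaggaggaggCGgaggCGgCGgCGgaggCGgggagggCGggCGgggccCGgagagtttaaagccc
Grb10 start of NM_001177629, chr11:12027972-12028221: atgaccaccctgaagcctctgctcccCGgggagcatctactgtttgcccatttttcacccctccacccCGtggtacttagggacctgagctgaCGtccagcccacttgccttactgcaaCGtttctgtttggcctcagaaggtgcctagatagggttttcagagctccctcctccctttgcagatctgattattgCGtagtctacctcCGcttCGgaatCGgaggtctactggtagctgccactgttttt
The first holds 40 CG and the second 8. Of 32851 promoter windows of this length in the table, whose median was 6, 1.31% hold at least 40 and 43.0% at least 8. The build used by the authors is not stated, so no read was placed on these coordinates, and methylation was not measured.

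Cdkn1c, the cyclin-dependent kinase inhibitor p57, had an FPKM of 0.05 and 0.07 in wt, 9.00 in null 1, 0.14 in null 2 and 0.62 in null 3, from 3, 4, 520, 8 and 35 counts. Null 1 stood far above the rest. Ratios to the pooled wt counts were 110 (95% interval 53.2 to 276), 1.54 (0.487 to 4.98) and 6.74 (2.95 to 18.0), so null 2 was not distinguishable from wt at this depth. In edgeR the log2 fold change was 5.25 with a standard error of 2.08 and an adjusted p of 0.253, and DESeq2 gave an adjusted p of 0.0173. In null 1, 72.7% of its FPKM was assigned to transcript NM_009876 and 27.3% to NM_001161624.

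Several neighbours of Cdkn1c in its imprinted domain were also highest in null 1. Phlda2, a growth restrainer of the placenta, had an FPKM of 2.46 and 0.27 in wt and 26.70, 0.14 and 1.66 in null 1, null 2 and null 3. Slc22a18, a transporter, had 0.15 and 0.38 against 18.78, 0.31 and 2.75. Kcnq1, a potassium channel, had 0.48 and 0.30 against 13.27, 0.04 and 2.68. These 3 neighbours, picked for naming after their values were seen, kept the order of Cdkn1c in null, with null 1 first and null 2 last. Others did not. Tssc4, Osbpl5 and Cd81 were highest in null 1 but had null 2 above null 3, and Nap1l4 was lowest in null 1, with 71.44 and 53.57 in wt and 48.91, 97.88 and 63.24 in null. Kcnq1ot1, the long noncoding RNA of the paternal copy, had an FPKM of at most 0.10, from 91 and 40 counts in wt and 256, 226 and 210 counts in null. Whether counting used strand is not given, so reads of Kcnq1 and of its antisense partner cannot be told apart.

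Plagl1, a zinc-finger transcription factor that regulates other imprinted genes, was not listed in wt and had 22, 9 and 83 counts in null 1, null 2 and null 3. These are low levels, with an FPKM of 0.14, 0.06 and 0.53. Against the floor, null 1 was at least 5.42-fold and null 3 at least 18.6-fold higher. The 9 counts of null 2, with a 95% counting interval of 4.1 to 17.1 counts, were 2.01-fold above the floor. The groups did not overlap, and the adjusted p was 0.194 with edgeR and 0.0138 with DESeq2.

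Peg3, a large zinc-finger protein, was carried by null 2. Its FPKM was 0.39 and 0.66 in wt, 0.87 in null 1, 31.21 in null 2 and 0.02 in null 3, from 80, 138, 175, 6168 and 5 counts. Null 2 was 38.0-fold above the pooled wt counts (95% interval 33.2 to 43.7), null 1 was within counting error of them (1.19, 0.971 to 1.46), and null 3 was at 0.0309 of them (0.00994 to 0.0733). The edgeR log2 fold change, 3.68 with a standard error of 2.34 and an adjusted p of 0.422, became -0.84 without null 2. Zim1, the maternally expressed neighbour of Peg3, was listed in null 2 alone, at 0.84.

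Peg10, a gene derived from a retrotransposon and needed in the placenta, was the most abundant of the 10 genes in wt. It had an FPKM of 1.56 and 2.06 in wt, 0.06 in null 1, 13.50 in null 2 and 0.42 in null 3, from 323, 433, 13, 2687 and 85 counts. Null 2 was 4.78-fold above the pooled wt counts (95% interval 4.41 to 5.19), while null 1 and null 3 were at 0.0255 (0.0135 to 0.0439) and 0.152 (0.120 to 0.190) of them. Wt thus lay between null 2 and the other null lines. The edgeR log2 fold change, 0.70 with a standard error of 1.77 and an adjusted p of 0.851, was -3.59 without null 2 and was also negative in the limma fits and with the replicate block. Sgce, which shares its promoter region with Peg10, did not follow it, with 17.73 and 18.15 in wt and 7.78, 24.89 and 32.98 in null.

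Mest, an enzyme of the hydrolase fold expressed in mesoderm and growing tissue, was the least uneven across the null lines of the 8 genes that reached an FPKM of 1. Its FPKM was 0.53 and 0.54 in wt and 4.54, 5.40 and 1.63 in null 1, null 2 and null 3, from 39, 40, 353, 403 and 123 counts. All null libraries lay above wt, by 6.64-fold (95% interval 5.19 to 8.58), 6.86-fold (5.38 to 8.84) and 2.10-fold (1.57 to 2.82). The edgeR log2 fold change was 2.37 with a standard error of 0.82 and an adjusted p of 0.223, and the adjusted p of DESeq2 was 0.0344. Copg2, the neighbour whose gene overlaps the end of Mest, had an FPKM of 22.17 and 20.80 in wt and 26.30, 18.36 and 21.78 in null, while its TMM-scaled CPM was 85.7 and 92.1 in wt and 78.4, 48.6 and 58.0 in null.

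The wt and null libraries differed in which Mest start the counts were assigned to. In both wt libraries all 39 and 40 counts went to NM_001252293, which begins at the upstream start, and none to NM_008590. In null 1, null 2 and null 3, NM_008590 received 334.14, 285.67 and 99.99 counts, or 94.7%, 69.4% and 80.4% of the gene's FPKM. NM_001252293 received 117.33 and 23.08 counts in null 2 and null 3, and none in null 1, where the other 19.01 counts went to NM_001252292, which also begins near the downstream start. These shares are estimates of the counting program, because the transcripts share most of their exons. No test was made of the shares.
Mest upstream start, chr6:30733256-30733505, plus strand: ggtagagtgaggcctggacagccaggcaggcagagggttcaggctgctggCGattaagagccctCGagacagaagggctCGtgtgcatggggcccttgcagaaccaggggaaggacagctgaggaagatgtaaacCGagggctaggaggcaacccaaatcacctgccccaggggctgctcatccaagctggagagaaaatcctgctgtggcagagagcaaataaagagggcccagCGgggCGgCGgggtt
Mest downstream start, chr6:30737800-30738049, plus strand: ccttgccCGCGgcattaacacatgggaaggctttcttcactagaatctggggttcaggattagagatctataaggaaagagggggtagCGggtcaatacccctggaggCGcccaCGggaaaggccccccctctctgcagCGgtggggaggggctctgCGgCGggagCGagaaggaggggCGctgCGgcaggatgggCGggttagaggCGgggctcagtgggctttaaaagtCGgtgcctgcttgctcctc
The RefSeq windows of GRCm38.p6 before these starts are shown with every CG in capitals. The upstream window holds 7 CG and the downstream window 14, numbers that 46.3% and 29.4% of all windows reach. The downstream window, whose transcripts were assigned counts in the null libraries alone, also holds 2 copies of TGCCGC, searched on either strand, each of which contains a CG. TGCCGC is the core of the methylated motif bound by ZFP57, a keeper of imprints. It occurs in 8.68% of all windows and in 4 of the 14 windows found for 7 of the 10 genes, at Mest, Meg3 and Plagl1. Of these 4 windows, 2 are the same Mest stretch shifted by 3 bases. A match of letters is a description and not a binding site.

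**Figure D2:**
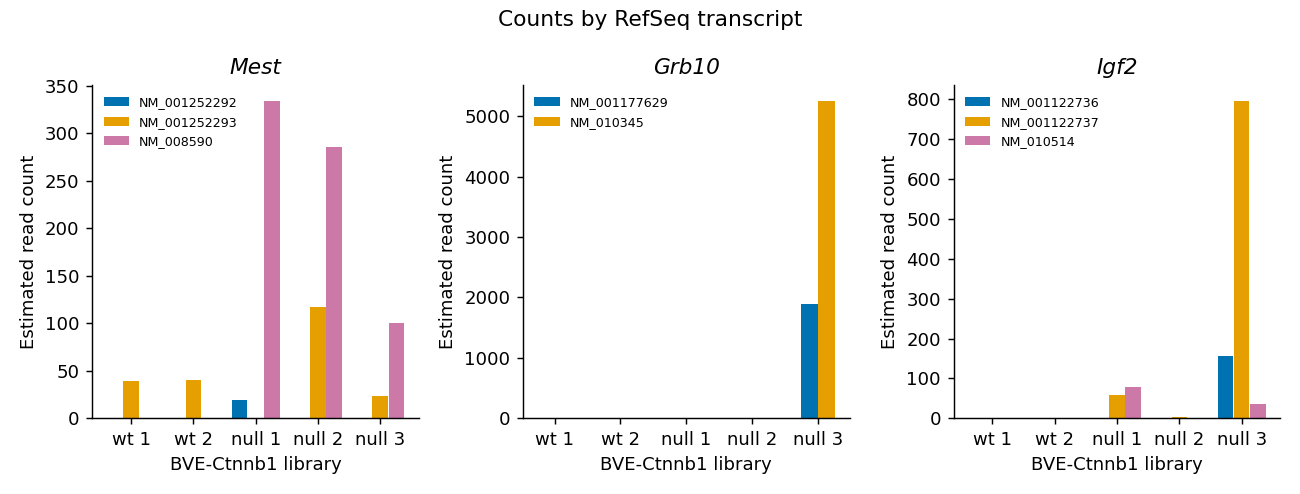
Estimated read counts (y axes, linear, each panel with its own scale) by RefSeq transcript of Mest, Grb10 and Igf2 in the 5 libraries. The Mest counts of both wt libraries belong to NM_001252293, those of the null libraries mostly to NM_008590, and Grb10 bars stand in null 3.

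The transcripts of Igf2 also differed between the libraries that expressed it. In null 3, NM_001122737 held 80.8% of the gene's FPKM and NM_010514 held 3.35%. In null 1 the shares were 44.3% and 55.7%. NM_001122736, with 157 counts, was listed in null 3 alone. For Dlk1, by contrast, the full-length NM_010052 held 97.4%, 100% and 95.8% in null 1, null 2 and null 3. The pair of Peg10 transcripts split their counts equally in every library, which leaves them unresolved.

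Set side by side, each null line carried its own combination. In null 1, Dlk1 made up 62.9% of the summed FPKM of the 10 genes and Cdkn1c 19.4%. In null 2, Peg3 made up 60.7% and Peg10 26.3%. In null 3, Grb10 made up 72.6% and Igf2 13.6%. Of the 10, 3 genes were at their highest in null 1 (H19, Dlk1, Cdkn1c), 3 in null 2 (Peg3, Peg10, Mest), 4 in null 3 (Igf2, Meg3, Plagl1, Grb10) and none in wt. In wt 1 and wt 2, Peg10 led with 56.9% and 58.9%.

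**Figure D3:**
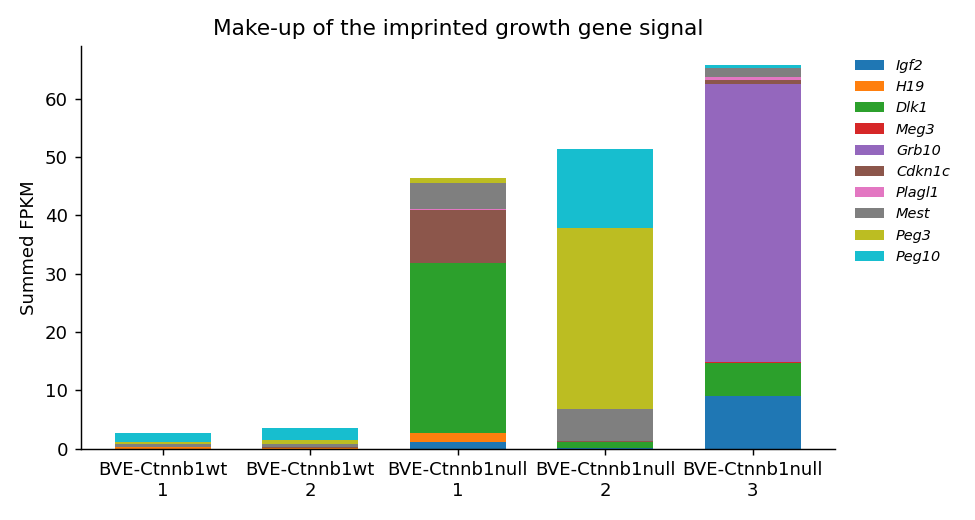
Summed FPKM of the 10 imprinted growth genes in each library (linear axis from 0), with 1 colour per gene. Both wt bars, 2.74 and 3.50, are small beside the null bars of 46.5, 51.4 and 65.8, and Dlk1, Peg3 and Grb10 fill most of null 1, null 2 and null 3.

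Of the 8 genes that reached an FPKM of 1 in some library, 5 had over 80% of their FPKM summed over the 5 libraries in a single null library. These were Grb10 (100.0%), Peg3 (94.1%), Cdkn1c (91.1%), Igf2 (88.4%) and Dlk1 (81.2%). Among all 12217 genes that reached an FPKM of 1 in some library, 5.57% were so uneven. All of the 8 but Peg10 were under an FPKM of 1 in both wt libraries. They passed this filter through null libraries where they were high, so the comparison is a description and carries no weight as support. Outside these 8, Meg3 rested on 5 counts, all in null 3, and Plagl1 had 72.6% of its FPKM there. The range across the 3 null libraries on the scale of log2(FPKM + 0.1) had a median of 5.68 over these 8 genes, from 1.67 for Mest to 8.90 for Grb10. The median over all 12217 genes was 1.46. The same filter bears on this comparison, which also carries no weight as support. The difference between wt 1 and wt 2, which differ in the TSH label, had a median size of 0.14 for these 8 genes and 0.40 for all genes. Genes at or near 0 in both wt libraries, such as Igf2 and Grb10, cannot differ on this scale. The difference was widest for Peg3 (0.63, or 80 and 138 counts). With 1 library for each TSH label, this difference has no replicate check.

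The comparison of genotypes used all 5 libraries. Every null library lay above both wt libraries for 5 of the 10 genes, Igf2, Dlk1, Mest, Plagl1 and Cdkn1c, while 28.8% of the 17923 genes listed did so. In null 2 this rested on few counts, 3 for Igf2 against 0 in each wt library and 8 for Cdkn1c against 3 and 4. None of the 10 lay below wt in every null library, against 6.10% of all genes. Igf2, Dlk1, Meg3, Plagl1 and Grb10, at or near 0 in wt, could hardly lie below it, so these shares carry no weight as support. An exact permutation test (two-sided, on log2(FPKM + 0.1)) gave p = 0.200 for each of Igf2, Dlk1, Mest, Plagl1 and Cdkn1c. The smallest p that 2 against 3 libraries allow is 0.1. Both wt libraries were at or under 3 counts for Igf2, Dlk1, Meg3, Plagl1 and Grb10, against 23.4% of all genes listed. Among the 15454 genes with over 3 counts in some null library, that share was 12.9%.

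In edgeR's fit over 13240 genes, 8 of the 10 genes passed the filter on low counts and Meg3 and Grb10 did not. All 8 had positive log2 fold changes, with a median of 4.47, or 3.40 with Igf2 and Plagl1 set to their lower bounds, beside 0.29 over all genes tested. A gene with almost no wt counts, such as Igf2, Dlk1, Plagl1 or Cdkn1c, passes this filter through its null counts and could hardly be lower in null, so neither this median nor the counts of called genes that follow carry weight as support. At an unadjusted p under 0.05, 5 of the 8 were higher in null and 0 lower, against 12.4% and 6.07% of all genes tested. After Benjamini-Hochberg adjustment 0 of the 8 remained under 0.05, as did 0 of all genes. The lowest adjusted p was 0.180 among the 8 and 0.0845 among all genes. DESeq2 gave an adjusted p for 6 of the 10 and called 5 of them higher in null and 0 lower, against 8.46% and 3.17% of all genes with one. Relative to the wt mean, the median of the 8 genes on log2(FPKM + 0.1) was 2.69, 1.76 and 1.81 in null 1, null 2 and null 3. The median of all genes moved with the fit and its scaling, and was 0.21 with TMM, 0.14 with DESeq2 and 0.61 on log2(FPKM + 0.1) over the 11796 genes fitted in all 3 ways. For the 5 genes called by DESeq2 the groups do not overlap, so leaving out a library could not turn their direction. For Igf2 and Cdkn1c, however, the gap between null 2 and wt was within counting error.

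**Figure D4:**
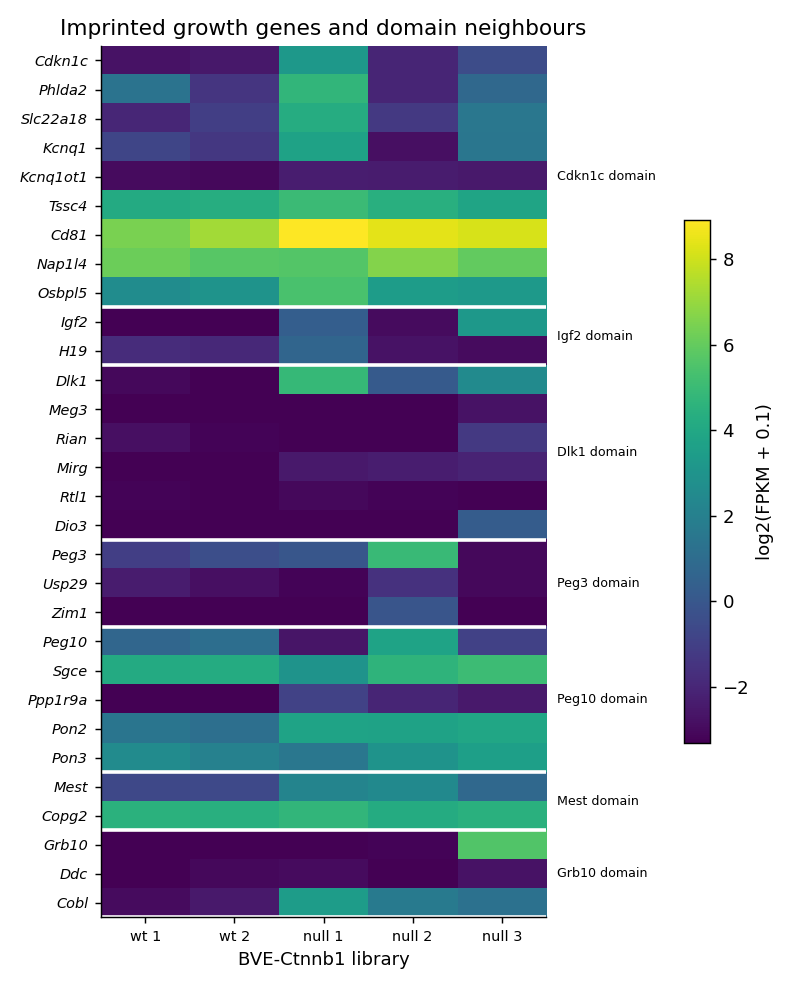
Heat map of log2(FPKM + 0.1) for the 10 genes and their neighbours (rows, grouped by imprinted domain) in the 5 libraries (columns). Cdkn1c, Phlda2, Slc22a18 and Kcnq1 are brightest in null 1 and Nap1l4 is not, Peg3 and Zim1 in null 2, and Dio3 and Grb10 in null 3, while Copg2 lies between 18.36 and 26.30 FPKM in every library.

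A list of 62 other imprinted genes, 41 of them tested, included genes on both sides. Its median log2 fold change was 0.24, and 8 genes were higher and 2 lower in null at an unadjusted p under 0.05, with 0 after adjustment (DESeq2 called 7 and 2). Over all genes tested these shares were 12.4% and 6.07% (8.46% and 3.17% for DESeq2). The higher genes were Igf2r, which clears IGF2 from the surface (log2 fold change 1.89), Ube3a, a ubiquitin ligase (2.88), Ndn, a growth suppressor of neurons (6.78), Impact, a translation regulator (2.16), Gab1, an adaptor of growth factor receptors (1.30), Pon2, a lactonase (1.99), Ppp1r9a (8.85) and Cobl (6.07). Ppp1r9a was not listed in wt, so its fitted value is no bound. The groups overlapped for Ndn, which was not tested without null 2 or without null 3. Its unadjusted p in edgeR was 0.491 with the replicate block. The unadjusted p of Impact was over 0.05 without null 2 or without null 3. That of Gab1 was over 0.05 when any 1 of the null libraries was left out. Rasgrf1, an exchange factor of Ras, had an FPKM of 3.72 and 8.87 in wt and 0.02, 0.00 and 0.07 in null (log2 fold change -7.94), and Commd1 was also lower (-1.60). Rasgrf1 thus had no null library within the wt range.

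Ndn repeated the uneven pattern, with an FPKM of 0.12 and 0.08 in wt, none in null 1, 41.93 in null 2 and 9.44 in null 3. Nnat, a membrane protein of developing brain, had 8.05 in null 1 and at most 0.03 elsewhere, and Dcn, decorin, had 84.66 in null 3 and at most 0.12 elsewhere. Peg12 was highest in null 2, at 5.03. By contrast Gnas, the stimulatory G protein that couples the TSH receptor to cAMP, was abundant in every library, with 897.81 and 1245.19 in wt and 905.13, 1076.15 and 790.74 in null. Besides Gnas and Dcn, the imprinted genes with a mean of at least 20 in either group were Tssc4, Nap1l4, Osbpl5, Cd81, Sgce, Copg2, Blcap, Commd1, Trappc9, H13 and Axl, each listed in all 5 libraries. Cd81, a tetraspanin, had 86.68 and 147.51 in wt and 479.72, 334.55 and 286.53 in null (adjusted p = 0.319, edgeR).

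The receptors and binding proteins of the IGF axis were followed with 18 genes, 14 of them tested, whose median log2 fold change was 1.83. At an unadjusted p under 0.05, 7 were higher and 1 lower in null, with 0 after adjustment (DESeq2 called 5 and 1), against the same 12.4% and 6.07% of all genes tested. Besides Igf2r, which is also on this list, the receptors Igf1r and Insr had log2 fold changes of 1.58 and 2.19, and the substrates Irs1 and Irs2 2.66 and 1.76. Without null 2 the log2 fold change of Igf1r was 1.22 and its unadjusted p was over 0.05. Igf1, the other ligand, was lower, with an FPKM of 2.28 and 1.36 in wt and 0.01, 0.14 and 0.19 in null (log2 fold change -4.23, standard error 1.00, adjusted p = 0.186 with edgeR, 3.86e-04 with DESeq2). Igf1 and Igf2 thus stood on opposite sides, Igf1 above its null levels in wt and Igf2 listed in null libraries alone.

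The IGF binding proteins differed by line. Igfbp2 had an FPKM of 0.17 and 0.00 in wt and 0.13, 5.52 and 37.71 in null 1, null 2 and null 3, and the protease Pappa, not listed in wt, reached 0.50 in null 3. Igfbp4 had 90.97 and 56.53 in wt and 267.14, 387.17 and 37.02 in null. Igfbp6, which prefers IGF2 over IGF1, had 9.45 and 17.14 in wt and 7.37, 0.37 and 282.76 in null. Igfbp7 had 57.17 and 38.35 against 33.82, 89.62 and 397.16. Null 3, the library with the most Igf2, thus also had the most Igfbp2, Igfbp6 and Igfbp7 and the least Igfbp4.

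Regulators of imprint methylation made up another list, which also held Tet1, Tet2 and Tet3, enzymes that act to remove methylation. Of these 18 genes, 14 were tested, with a median log2 fold change of 1.03, and 2 were higher at an unadjusted p under 0.05, Smchd1 (2.51) and Hells (2.42), a share near the 12.4% of all genes tested. Without null 2 the log2 fold change of Hells was 1.90 and its unadjusted p was over 0.05. Of those tested, 12 had positive log2 fold changes, among them Tet2 (2.11) and Tet3 (1.74), and 2 had negative ones. Zfp57 was among the 2, with an FPKM of 11.83 and 10.25 in wt and 8.23, 9.55 and 5.13 in null (log2 fold change -1.09, adjusted p = 0.294, edgeR). Trim28, the corepressor that ZFP57 recruits, had an FPKM of 81.07 and 107.65 in wt and 179.81, 148.59 and 61.18 in null, and Uhrf1, which guides maintenance methylation, had 8.91 and 16.14 against 26.23, 34.96 and 18.88. Of 7 oncofetal genes, 5 were tested, and Igf2bp3, an RNA-binding protein of Igf2 transcripts, was the 1 with an unadjusted p under 0.05 (log2 fold change 5.23, adjusted p = 0.196, edgeR), where 12.4% of all genes tested were higher. Its FPKM was 0.06 and 0.03 in wt and 2.98, 0.15 and 4.21 in null, highest in the null lines that expressed Igf2. The chromatin protein Hmga2 had 24.22 and 5.96 against 102.42, 158.41 and 12.14, and Hmga1 1090.29 and 760.64 against 1165.90, 635.15 and 196.99.

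Among 15 DLK1 and Notch genes, 12 of them tested with a median of 1.64, Notch1 (log2 fold change 4.54), Jag2 (5.01) and Dll1 (2.68) were higher at an unadjusted p under 0.05, where 12.4% of all genes tested were, and none was lower. Without null 1 the log2 fold change of Jag2 was 1.95 and its unadjusted p was over 0.05. Jag2, a Notch ligand, had an FPKM of 0.05 and 0.14 in wt and 12.10, 0.31 and 0.92 in null, the same order of null lines as Dlk1. The DNA-binding partner Rbpj had 33.22 and 20.38 against 25.50, 87.44 and 73.53. Of 6 relatives of the growth genes, Plagl2, the paralog of Plagl1, was the 1 with an unadjusted p under 0.05 (log2 fold change 2.82, adjusted p = 0.184, edgeR), a share near that of all genes. Its FPKM was 0.29 and 0.22 in wt and 3.18, 2.71 and 1.98 in null. Cdkn1a, the p21 relative of Cdkn1c, had 178.33 and 154.48 in wt and 645.44, 179.82 and 90.81 in null, highest in null 1 as Cdkn1c was.

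The 3 genes with the widest range over the libraries, Grb10, Dlk1 and Peg3, were matched to genes of like profile by the Euclidean distance of log2(FPKM + 0.1) centred on its mean over the 5 libraries, among 12216 candidates. Nearest to Grb10 were Dcn (distance 0.54), Mgp (0.68) and Gpx7 (0.95), each carried by null 3, where Mgp, the matrix Gla protein, reached 378.54. Nearest to Dlk1 were Il1rn (1.21), Ramp1 (1.27) and Fam20c (1.46), with 15.58, 53.12 and 31.76 in null 1. Nearest to Peg3 were St8sia2 (1.19), Hoxc6 (1.99) and Gper1 (2.18), with 25.39, 6.22 and 3.75 in null 2. Likeness over 5 libraries is a description.

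Markers of other cell types also differed between the libraries. The 12 fibroblast markers summed to an FPKM of 290 and 255 in wt, 1.71 in null 1, 148 in null 2 and 1420 in null 3, led by Col1a1. Of these 12, 9 had an FPKM of at least 1 in null 3, including Dcn, Postn (101.56) and Thy1 (88.47), and none was at 0 there, while Lum stayed at 0.02. The 7 adipocyte markers summed to 458 in null 3, nearly all of it Fabp4 (438.36), with Adipoq, Lep and Cidec at 0. Pparg, the adipocyte transcription factor, had 0.76 and 1.30 in wt and 8.60, 4.85 and 16.75 in null. The 11 muscle lineage markers summed to 186 and 145 in wt and to 73.2, 275 and 1100 in null 1, null 2 and null 3. Acta2 led in null 3 with 942.16, against 81.9 and 71.3 in wt and 192 in null 2. Myod1, Myf5 and Myog were at 0 in null 3. Null 3 is the library that carried Grb10 and most of the Igf2, and the part of these cell types in that result was not tested.

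In null 1 the 12 epithelial markers summed to 14200, against 1110 and 1790 in wt, 706 in null 2 and 1470 in null 3, led by Krt7. All 12 had an FPKM of at least 1 in null 1, the library of Dlk1 and Cdkn1c, as did 11 in null 3 and 9 in each wt library. In null 2, the library of Peg3 and Peg10, 4 of 12 did, and Epcam and Cdh1 were at 0. The 8 immune markers summed to between 1.25 and 60.0, led by Cd68, and Ptprc, Adgre1 and Cd3e were at 0 in every library. The 7 endothelial markers summed to at most 0.750, led by Kdr, and the 6 C cell and parathyroid markers to at most 4.89, led by Calcb, with Pth and Gcm2 at 0. The 10 proliferation markers summed to 91.4 and 202 in wt and to 190, 519 and 421 in null, led by Pcna. The part of these differences in the levels of the imprinted genes was not tested. In bulk libraries, fewer cells of a type and less RNA per cell cannot be told apart.

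**Figure D5:**
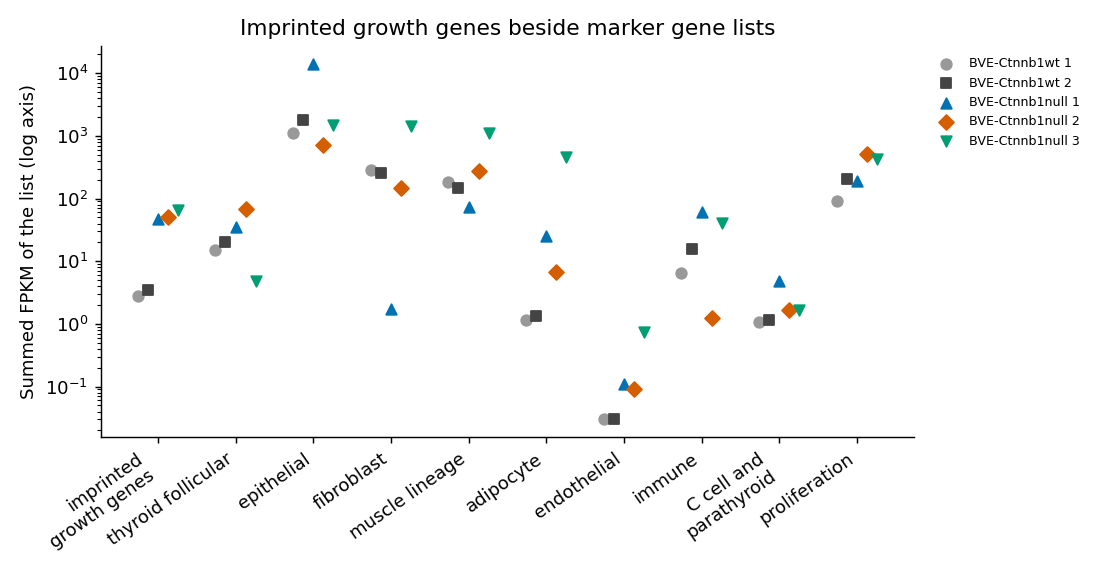
Summed FPKM (log axis) of the imprinted growth genes and of each marker list, 1 point per library. The imprinted genes are low in both wt libraries, fibroblast markers run from 1.71 in null 1 to 1420 in null 3, and epithelial markers peak at 14200 in null 1.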

How the data were processed

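RNA of the 5 libraries was prepared with a TruSeq RNA kit. For each RefSeq transcript the authors deposited fractional expected counts and FPKM, which divides by transcript length and library total, per the file headers. The aligner, counting program, build and strand setting are not given in the sources used here. Counts and FPKM were summed per NCBI gene number, counts were rounded, and an unlisted transcript was taken as 0. Symbols came from RefSeq (GRCm38.p6) and matched 17866 of 17923 genes. In each library 3 counts correspond to about 0.10 CPM. Such limits cover counting error only.

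Counts were compared with edgeR 4.0.16 in R 4.3.3 (TMM, filterByExpr by group, quasi-likelihood test, Benjamini-Hochberg threshold 0.05). Alternatives were DESeq2 1.42.0, no filter, a minimum of 10 counts per library, limma 3.58.1 on log2(FPKM + 0.1, 0.01 or 1) where 2 libraries or more reached an FPKM of 0.5, upper-quartile normalization, leaving out each library and the replicate number as a block. The fits were also run on simulated data, and the outcome is not reported here. Python 3.11.15, numpy 2.4.6, pandas 2.3.3 and scipy 1.17.1 were used for the rest.

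Genes named from the other lists had an unadjusted p under 0.05 or a mean FPKM of at least 20 in either group, with exceptions given below. Genes of like profile were the 3 nearest with an FPKM of at least 1 in some library. Nnat, Peg12, Zfp57, imprinted neighbours, marker genes and transcripts beyond these rules were chosen after their values were seen. The 10 genes and all lists were chosen with earlier results of these data known. A few single marker genes are not reported here.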

Additional observations from a re-analysis of the deposited data

How the results depend on the processing

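Among the values of the 8 imprinted genes in edgeR, 74 of those under the alternatives kept their direction and, where an adjusted p was given, their side of the threshold, 5 passed the threshold (Igf2, Dlk1, Mest, Plagl1 and Cdkn1c, each with DESeq2) and 7 changed direction. The log2 fold change of Peg10, 0.70 in edgeR, was -0.86, -1.28 and -0.0022 in limma with 0.1, 0.01 and 1 added to FPKM, -1.38 with the replicate block, and ranged from -3.59 to 1.27 when a library was left out. That of H19 ranged from -2.81 without null 1 to 1.55, and that of Peg3 from -0.84 without null 2 to 4.25. Over all fits that tested them, Igf2 ranged from 1.49 to 11.83 and Dlk1 from 2.88 to 13.53. The ranges of Cdkn1c, Mest and Plagl1 were 1.32 to 5.72, 1.56 to 2.75 and 6.84 to 8.43. Igf2, Plagl1 and Cdkn1c were not tested without null 1 or without null 3. The other genes named for an unadjusted p under 0.05 kept their direction in every fit that tested them, and 19 of their values passed the threshold, all with DESeq2.

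The number of genes called higher in null, 0 with edgeR, was 1149 with DESeq2 and 1 in each limma fit. The number called lower, also 0, was 430 with DESeq2, 4 without a filter, 1 with at least 10 counts in every library, and 5, 3 and 7 in limma with 0.1, 0.01 and 1 added. At an unadjusted p under 0.05, edgeR had 1646 higher and 804 lower. The counts stayed at 0 with upper-quartile normalization, with the replicate block and when any 1 library was left out, though without a wt library the single wt sample is assumed to vary like the null libraries and a count of 0 says little.

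The median log2 fold change of the imprinted genes tested, 4.47, was 1.54 with at least 10 counts in every library, which left 2 of them, and 2.67, 3.21 and 1.43 in limma with 0.1, 0.01 and 1 added, which left 6. It was 3.31 with the replicate block and ranged from 2.13 without null 1 to 5.46 without wt 2 when a library was left out, with 2.70 without null 3. These rest on 5, 9 and 5 genes, so they are not medians of the same genes. Libraries with the same replicate number had deviations that correlated at -0.112 and -0.108, so the numbers do not pair the samples. The cause of these changes was not tested.

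With 2 wt libraries of 1 line, and 1 library for each null line, the differences between null lines have no replicate check. Wt counts of 0 leave folds of Igf2, Plagl1 and Grb10 as lower bounds, those of Dlk1 rest on 2 wt counts, and depth does not resolve Meg3.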
